A study of Homo sapiens with 8 samples.

Results

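Of the 1780 mature miRNAs counted in these libraries, 3 of the miR-203 locus are described here, hsa-miR-203a-3p from the plus strand and hsa-miR-203b-3p and hsa-miR-203b-5p from the opposite strand (a further arm, miR-203a-5p, is given beside them). They were chosen by name, as the rows of miR-203a and miR-203b, with their MCS and 2D values already known, so the comparison between the cultures is described below without a test. The libraries were made from small RNA of DLD1 and HT29, both established lines of human colorectal adenocarcinoma cells, on day 6 of culture. DLD1 cells were grown in RPMI medium, seeded at 35000 cells per flask for the monolayer (2D) and at 7000 cells per well for multicellular spheroids (MCS). HT29 cells were grown in DMEM, seeded at 100000 cells per flask for 2D and 3500 per well for MCS. Spheroids of both lines formed in round-bottom wells coated with agarose. Each line and culture had 2 libraries, which the labels name biological replicates, 8 in all. Kit version 3 was used for DLD1 and kit version 2 for HT29, so kit, medium and cell line cannot be told apart.

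MicroRNAs are short RNAs that guide Argonaute proteins to messenger RNAs, chiefly through pairing of the seed, the bases near their 5′ end, and lower the output of those messages. miR-203 is best known from stratified epithelium, where it is switched on as keratinocytes leave the basal layer and represses the transcription factor p63. In carcinoma cells it is placed among the epithelial miRNAs: ZEB1, a repressor that drives the epithelial to mesenchymal transition, silences miR-203 and the miR-200 family, and miR-203 and SNAI2 repress each other.

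The mature sequences are shown since they decide what the counts can tell apart. They are from RefSeq, 5′ to 3′, with the seed (bases 2 to 8) in capitals, for the 3 miRNAs and for miR-203a-5p, the remaining arm of the locus.
miR-203a-3p: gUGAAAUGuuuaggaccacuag
miR-203b-5p: uAGUGGUCcuaaacauuucaca
miR-203b-3p: uUGAACUGuuaagaaccacugga
miR-203a-5p: aGUGGUUCuuaacaguucaacaguu

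No seed was shared between the 4 arms. Among 2369 other mature sequences compared, miR-6718-5p alone shared a seed with one of them, that of miR-203b-5p, and it was not among the miRNAs counted. The miR-203a and miR-203b names therefore stand for RNAs with different seeds. The likeness lies between the strands, and the bases in capitals below are those at which each RNA of a pair is the reverse complement of its partner.
miR-203a-3p: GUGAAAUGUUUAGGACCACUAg
miR-203b-5p: UAGUGGUCCUAAACAUUUCACa
miR-203a-5p: AGUGGUUCUUAACAGUUCAAcaguu
miR-203b-3p: UUGAACUGUUAAGAACCACUgga

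The run of complementary bases was 21 bases long between miR-203a-3p and miR-203b-5p and 20 bases long between miR-203a-5p and miR-203b-3p. Both pairs come from a single stretch of chromosome 14 in which a hairpin lies on each strand. The miR-203a hairpin (RefSeq, 110 bases) is printed with its 5p and then its 3p arm in capitals.
miR-203a hairpin: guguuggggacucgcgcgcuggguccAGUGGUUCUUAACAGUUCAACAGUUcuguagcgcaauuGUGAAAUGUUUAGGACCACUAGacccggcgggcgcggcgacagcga

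Matched to GRCh37, the miR-203a hairpin lies at chr14:104583742-104583851 on the plus strand and the 86-base miR-203b hairpin inside it at chr14:104583755-104583840 on the minus strand. miR-203a-3p covers chr14:104583806-104583827 and miR-203b-5p chr14:104583805-104583826, so the pair is shifted by a single base. miR-203a-5p covers chr14:104583768-104583792 and miR-203b-3p chr14:104583765-104583787. Each sequence matched chromosome 14 at 1 place. In GENCODE release 44 lifted to GRCh37 no gene other than MIR203 itself overlaps the hairpins, which are intergenic. The protein-coding gene ASPG ends 1822 bases before them. The near edges of the lncRNA ENSG00000289840, on the minus strand, and the kinesin gene KIF26A lie 17268 and 18939 bases after.

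**Figure D1:**
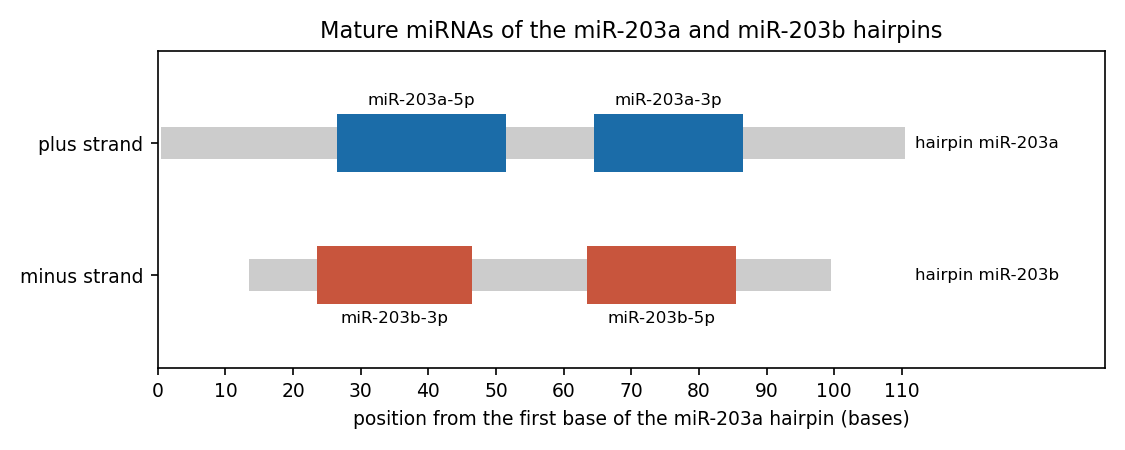
Positions of the 4 mature miRNAs (coloured boxes) on the miR-203a hairpin of the plus strand and the miR-203b hairpin of the minus strand (grey bars), in bases from the first base of the miR-203a hairpin. miR-203b-5p (bases 64 to 85) lies opposite miR-203a-3p (65 to 86), and miR-203b-3p (24 to 46) opposite miR-203a-5p (27 to 51).

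The libraries held from 10495634 to 26211524 counts on mature miRNAs, and 237 to 351 miRNAs reached 10 CPM, the counts scaled to an equal library size, in a library. Of 5 miRNAs known for colorectal epithelium (miR-192-5p, miR-194-5p, miR-215-5p, miR-200c-3p and miR-141-3p) all 5 were counted in every library, with a summed level of 56916 to 68079 CPM in DLD1 2D, 101201 to 103957 in DLD1 MCS, 32689 to 59546 in HT29 2D and 98162 to 128568 in HT29 MCS. The sums hide a split by line. miR-200c-3p had 53618 to 94141 CPM in DLD1 and 10821 to 20189 in HT29. miR-192-5p had 753 to 3155 CPM in DLD1 and 17996 to 73849 in HT29, and miR-215-5p 66.9 to 94.5 and 199 to 1779. miR-194-5p had 1517 to 5511 CPM in DLD1 and 2922 to 42524 in HT29, and miR-141-3p 446 to 1072 and 751 to 3493. Of 7 miRNAs known from other cell types, miR-223-3p was not analysed here. The other 6 summed to 82.5 to 99.1 CPM in DLD1, nearly all of it endothelial miR-126-3p (78.9 to 94.0 CPM), and to 2.67 to 18.3 CPM in HT29. The erythroid miR-451a, the hepatocyte miR-122-5p and the stromal miR-145-5p had a count of 0 in at least 1 library each and reached at most 1.01 CPM. The stromal miR-143-3p was counted in every library, at 2.66 to 7.40 CPM in DLD1 and 0.191 to 1.26 CPM in HT29, as was the muscle miR-133a-3p, at up to 1.38 CPM in DLD1 and 2.04 CPM in HT29.

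miR-203a-3p, the arm that carries the known functions of miR-203, was by far the most counted of the 4. It took 50327 and 82520 counts in DLD1 2D (replicates 1 and 2), 176295 and 215198 in DLD1 MCS, 9176 and 43366 in HT29 2D, and 14170 and 41645 in HT29 MCS. As a share of all miRNA counts this was 0.318% and 0.324% in DLD1 2D (95% Wilson intervals 0.315% to 0.321% and 0.322% to 0.326%), against 0.976% and 1.05% in DLD1 MCS (0.971% to 0.980% and 1.05% to 1.06%). In HT29 the shares were 0.0874% and 0.165% in 2D and 0.132% and 0.242% in MCS. In DLD1 the intervals are narrower than the gap between the cultures, and in HT29 the 2 libraries of each culture stand further apart than the cultures do. The intervals cover counting error only, and reads were not collapsed to molecules. By rank, miR-203a-3p moved from place 40 in both DLD1 2D libraries to places 21 and 19 in MCS, and held places 50 and 59 in HT29 2D and 54 in both HT29 MCS libraries.

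miR-203b-5p, the antisense counterpart of miR-203a-3p, was counted at a level at least 4 times lower in every library. It took 2864 and 4147 counts in DLD1 2D, 9190 and 10758 in DLD1 MCS, 1152 and 10380 in HT29 2D, and 1782 and 9221 in HT29 MCS. miR-203b-3p was the least counted of the 3, with 1476 and 1890 counts in DLD1 2D, 2813 and 3323 in DLD1 MCS, 217 and 581 in HT29 2D, and 502 and 499 in HT29 MCS. All 3 passed the filter used for the fits, a mean of at least 10 CPM, in both lines. miR-203a-5p did not: it had 16 and 36 counts in DLD1 2D, 84 and 88 in DLD1 MCS, 2 and 27 in HT29 2D, and 19 and 36 in HT29 MCS.

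How miR-203 stood in spheroids and monolayer was compared within each cell line. Each count was scaled by the size of its library and by the library's upper quartile factor, which gives normalized CPM scaled over the 4 libraries of the line. In DLD1 cells miR-203a-3p had 2869 and 2775 normalized CPM in 2D and 9421 and 14100.1 in MCS. The MCS libraries were both above both 2D libraries, and the fitted log2 fold change of MCS against 2D was 2.06 (SE 0.27), a 4.17-fold higher level. In bulk libraries a change in the share of cells that hold a miRNA and a change in its level per cell cannot be told apart. miR-203b-5p had 163 and 139 normalized CPM in 2D and 491 and 705 in MCS, a log2 fold change of 1.98 (SE 0.24). miR-203b-3p had 84.2 and 63.5 in 2D and 150.3 and 218 in MCS, a log2 fold change of 1.32 (SE 0.26). Replicate 2 was the higher MCS library for all 3 miRNAs. That library had the lowest upper quartile factor of the line (0.746, against 1.04 to 1.17 in the others), and its part in the higher values was not tested. On CPM of the library total the MCS libraries were 3.07 and 3.25 times their same-numbered 2D libraries for miR-203a-3p, 2.81 and 3.23 times for miR-203b-5p and 1.67 and 2.19 times for miR-203b-3p.

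The 3 miRNAs were placed 18 (miR-203a-3p), 20 (miR-203b-5p) and 41 (miR-203b-3p) from the top among the fitted log2 fold changes of the 346 miRNAs tested in DLD1 cells, whose median was 0.23. All 3 had a fitted fold change of at least 1.5 towards MCS, as had 32.9% of the miRNAs tested. All 3 also had no overlap between the cultures with MCS higher, as had 45.4% of the miRNAs tested. Since these values were known when the miRNAs were chosen, nothing is read from those counts. Changing the scaling moved the median of all tested miRNAs between −0.22 and 0.23 and the 3 fold changes with it. Relative to that median the log2 fold change was 1.83 for miR-203a-3p, 1.75 for miR-203b-5p and 1.09 for miR-203b-3p, a distance that a scaling of whole libraries leaves nearly fixed by construction.

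In HT29 cells the spheroids and the monolayer overlapped for all 3 miRNAs on the normalized scale. miR-203a-3p had 1674 and 997 normalized CPM in 2D and 1779 and 1558 in MCS, a log2 fold change of 0.32 (SE 0.45). miR-203b-5p had 210.1 and 239 in 2D and 224 and 345 in MCS, a log2 fold change of 0.34 (SE 0.46). miR-203b-3p had 39.6 and 13.4 in 2D and 63.0 and 18.7 in MCS, a log2 fold change of 0.63 (SE 0.85). The 3 fold changes were each smaller than their standard error, at places 96, 91 and 54 of the 301 miRNAs tested, whose median was 0.03. Only miR-203b-3p reached a fitted fold change of 1.5, as did 20.6% of the miRNAs tested towards MCS. Within a replicate number, MCS was the higher library for each of them, though the numbers do not name a shared origin. On CPM of the library total it was higher by 1.51 and 1.46 times for miR-203a-3p, 1.51 and 1.36 times for miR-203b-5p and 2.26 and 1.31 times for miR-203b-3p. On the normalized scale these ratios were 1.06 and 1.56, 1.06 and 1.45, and 1.59 and 1.40. The fitted direction hung on single libraries: without replicate 2 of 2D it was −0.090 for miR-203a-3p and −0.042 for miR-203b-3p, without replicate 1 of MCS it was −0.53 for miR-203b-3p, and without replicate 2 of MCS it was −0.029 for miR-203b-5p.

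Depth and scaling went with the replicate number in HT29. The replicate 1 libraries held 10495634 (2D) and 10745232 (MCS) counts with upper quartile factors of 0.522 and 0.741, and the replicate 2 libraries 26211524 and 17182624 counts with factors of 1.66 and 1.56. miR-203b-3p was higher in replicate 1 in both cultures on the normalized scale. The biological coefficient of variation of the fit was 0.521 in HT29 and 0.193 in DLD1, so the HT29 comparison had less resolution. The response of HT29 minus that of DLD1, as the members' values only and with no test, was −1.75 (SE 0.47) for miR-203a-3p, −1.66 (SE 0.46) for miR-203b-5p and −0.69 (SE 0.98) for miR-203b-3p on the log2 scale.

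The minor arm miR-203a-5p, outside the filter, had 0.912 and 1.21 normalized CPM in DLD1 2D and 4.49 and 5.77 in DLD1 MCS. Fitted without a filter its log2 fold change was 2.25 (SE 0.62). In HT29 it had 0.365 and 0.620 in 2D and 2.39 and 1.35 in MCS, a log2 fold change of 1.76 (SE 0.86), with 2 counts behind the lower of the 2D values. Both MCS libraries lay above both 2D libraries in each line, as they did for 45.4% of the miRNAs tested in DLD1 and 17.9% in HT29. The arm was rare throughout, at 0.0318% to 0.0476% of the counts of both miR-203a arms in DLD1 and 0.0218% to 0.134% in HT29. The arms of miR-203b were less uneven, with miR-203b-3p at 34.0% and 31.3% of both miR-203b arms in DLD1 2D, 23.4% and 23.6% in DLD1 MCS, 15.9% and 5.30% in HT29 2D, and 22.0% and 5.13% in HT29 MCS. In DLD1 this share was lower in MCS than in 2D without overlap, and in HT29 it differed more between the replicate numbers than between the cultures.

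The 4 groups were then set side by side, on normalized CPM scaled over all 8 libraries (mean ± SD, n = 2). miR-203a-3p stood at 8895 ± 1845 in DLD1 MCS, 2183 ± 23.0 in DLD1 2D, 2139.5 ± 246 in HT29 MCS and 1763 ± 620.2 in HT29 2D. DLD1 MCS lay above all other libraries, and each of the 3 lower groups overlapped its neighbour in that order. miR-203b-3p had the same order, at 139 ± 25.7, 57.0 ± 9.32, 52.8 ± 41.3 and 34.9 ± 24.3, again with DLD1 MCS apart and the neighbours among the rest overlapping. miR-203b-5p was ordered otherwise. It stood at 453 ± 80.8 in DLD1 MCS, 363 ± 102 in HT29 MCS, 297 ± 28.7 in HT29 2D and 117 ± 9.04 in DLD1 2D, with neighbours overlapping except for DLD1 2D, which lay below all other libraries. How many of all miRNAs tested had a group set apart in this way was not counted, so nothing is read from these separations.

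**Figure D2:**
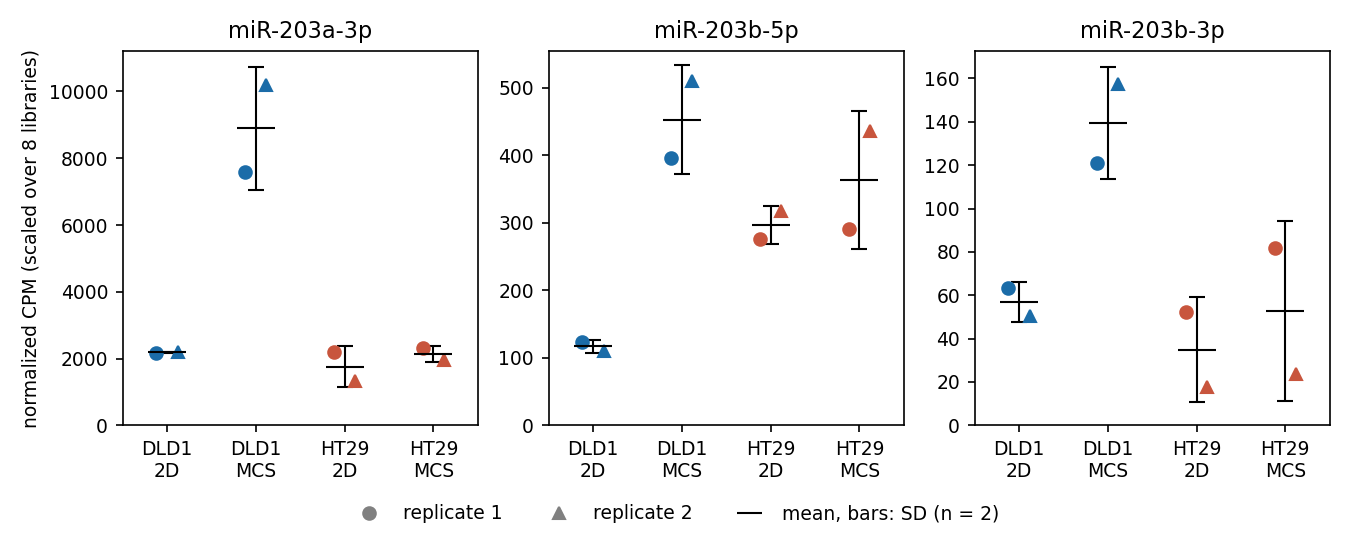
Normalized CPM of miR-203a-3p, miR-203b-5p and miR-203b-3p in each library, scaled over the 8 libraries (circles replicate 1, triangles replicate 2, blue DLD1, red HT29). Horizontal lines are means and bars SD (n = 2). For miR-203a-3p and miR-203b-3p the DLD1 MCS libraries lie above the other 6, and for miR-203b-5p the DLD1 2D libraries lie below the other 6.

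HT29 was compared with DLD1 within each culture in 1 fit of the 8 libraries by the quasi-likelihood test of edgeR, and p-values were adjusted by Benjamini-Hochberg over the 250 miRNAs that had a mean of at least 10 CPM in both lines. Both lines shared the spread of this fit. Its biological coefficient of variation was 0.398, against 0.193 for DLD1 and 0.521 for HT29 fitted alone. To be called, a miRNA had to differ at least 1.5-fold with an adjusted p under 0.05. In 2D, miR-203b-5p was higher in HT29, by 1.34 on the log2 scale (SE 0.33, edgeR adjusted p = 0.0163), where 26.0% of the miRNAs tested were called higher in HT29 and 42.4% in either direction. miR-203a-3p differed by −0.31 (SE 0.33, edgeR adjusted p = 0.498) and miR-203b-3p by −0.72 (SE 0.70, edgeR adjusted p = 0.459), and neither passed. The 2D values in this contrast were known when the miRNAs were chosen, so it is not independent of that choice. The call of miR-203b-5p was lost without replicate 1 of DLD1 2D (edgeR adjusted p = 0.104), without replicate 2 of DLD1 2D (0.143) and without replicate 2 of HT29 2D (0.0622), with library totals alone (0.602) and with the upper quartile over tested miRNAs (0.0992), each with HT29 still the higher. Over 17 other settings its adjusted p ran from 0.000997 to 0.602.

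In MCS, miR-203a-3p was lower in HT29, by −2.06 on the log2 scale (SE 0.34, edgeR adjusted p = 0.00435), a level 4.16-fold below that of DLD1, where 18.4% of the miRNAs tested were called lower in HT29 and 42.8% in either direction. The call was kept in all of the 17 other settings, with adjusted p from 4.56e-13 to 0.0388. The DLD1 MCS libraries in this contrast are those whose high values were known when the miRNAs were chosen, so it is not independent of that choice. miR-203b-3p differed by −1.41 (SE 0.71, edgeR adjusted p = 0.149) and did not pass. It passed in 4 of the 17 other settings, at −2.54 without replicate 1 of HT29 MCS (edgeR adjusted p = 0.0370), −2.07 with library totals alone (0.0206), −1.41 with no filter (0.0232) and −1.47 in the 4 MCS libraries alone (0.0406). miR-203b-5p differed by −0.32 (SE 0.32, edgeR adjusted p = 0.448), and under trimmed mean of M-values (TMM) factors the sign turned to 0.070. Whether the lines or their kits and media set these differences cannot be told apart.

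The strands of the locus were also compared within each library, as the percent of the counts of miR-203b-5p plus miR-203a-3p that lay on miR-203b-5p, a measure in which the scaling of the library drops out. In DLD1 it was 5.38% and 4.78% in 2D and 4.95% and 4.76% in MCS. In HT29 it was 11.2% and 19.3% in 2D and 11.2% and 18.1% in MCS. Every HT29 library lay above every DLD1 library, and the share was nearly the same in MCS and 2D of the same replicate number, although miR-203a-3p itself stood several-fold higher in DLD1 MCS than in DLD1 2D. HT29 exceeded DLD1 by 9.97 percentage points (exact two-sided permutation test of the cell line within culture, 36 arrangements, p = 0.0556), and that p is the smallest these arrangements can give, so the design could not reach the threshold of 0.05.

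How strand was used in counting is not given in the sources used here, so a read of miR-203a-3p that was counted on the opposite strand and a read of miR-203b-5p cannot be told apart. The same holds for miR-203a-5p and miR-203b-3p. Other miRNAs with reverse complementary sequence were therefore looked up. Of the 1780 miRNAs counted, 1557 had a RefSeq sequence, and 90 pairs of them held a run of at least 16 bases in which one is the reverse complement of the other. Only 8 of those pairs reached 1000 counts in every library, miR-203b-5p with miR-203a-3p among them, and a minimum run of 18 bases gave 8 too. Of the 8, 5 lay on opposite strands of 1 locus, and the pairs of miR-107, miR-7-5p and miR-582-5p did not. In 3 of the 8 the complement ran over the whole of a mature sequence. There, miR-103a-3p took 48.7% to 48.9% of its pair with miR-103b in all 8 libraries, and miR-423-5p took 48.3% to 50.5% of its pair with miR-3184-3p. Both pairs were thus close to an even split. The third, miR-7-5p with miR-3529-3p, had 8.25% to 9.05% on miR-7-5p in DLD1 and 16.8% to 23.4% in HT29.

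The pairs with a partial complement were uneven, as the miR-203 pair was. miR-3074-5p took 3.71% to 7.78% of its pair with miR-24-3p in DLD1 and 34.6% to 39.1% in HT29. miR-3184-5p took 6.01% to 8.49% of its pair with miR-423-3p in DLD1 and 11.3% to 20.4% in HT29. For miR-582-5p with miR-582-3p, opposite arms of 1 hairpin, the share was 17.9% to 24.8% and 31.4% to 60.3%. Counting the miR-203 pair, all HT29 libraries lay above all DLD1 libraries in 5 of the 8 pairs and below them in 0, so the higher HT29 share of miR-203b-5p was shared with 4 other pairs. Among those 4, the pairs of miR-7-5p and miR-582-5p are not opposite strands of 1 locus. In the other partial pair, miR-107 with miR-103b, the lines overlapped, at 3.56% to 5.86% in DLD1 and 4.18% to 12.1% in HT29.

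**Figure D3:**
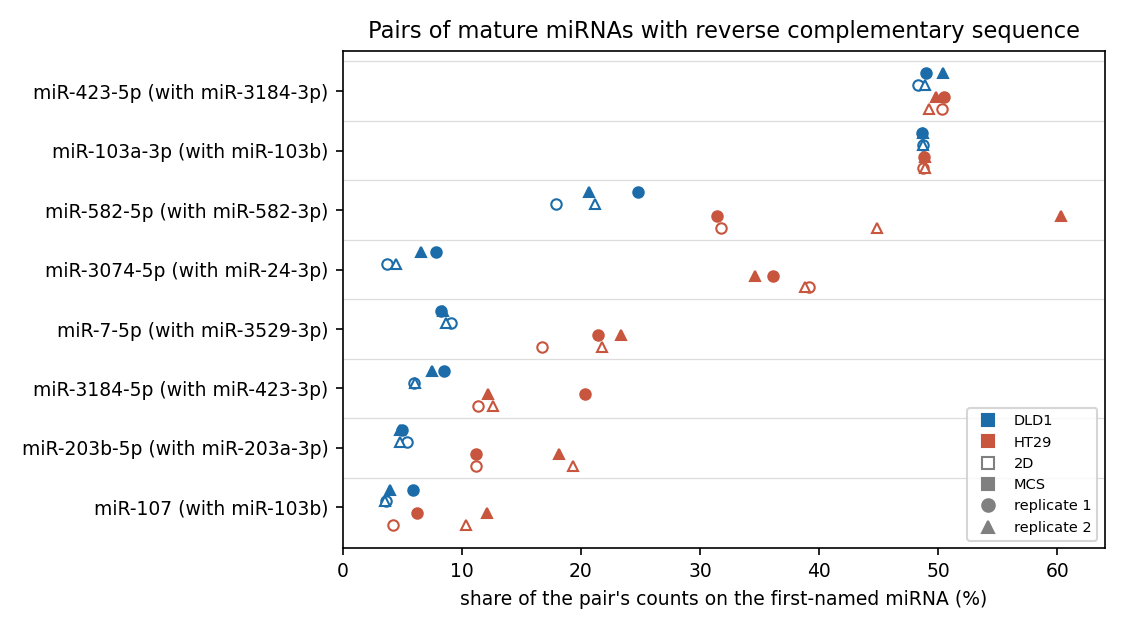
Percent of a pair's counts that lay on the first-named miRNA, for the 8 pairs of reverse complementary mature miRNAs with at least 1000 counts in every library (blue DLD1, red HT29, open 2D, filled MCS, circles replicate 1, triangles replicate 2). The miR-203b-5p share lies at 4.76% to 5.38% in DLD1 and 11.2% to 19.3% in HT29, and the pairs of miR-103a-3p and miR-423-5p lie near 50% in both lines.

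As the strands cannot be told apart, the counts of miR-203a-3p and miR-203b-5p were also added up, a step chosen after their values were seen. The sum was 2973 ± 84.0 normalized CPM in DLD1 2D and 12359 ± 3460 in DLD1 MCS (n = 2, scaled within the line), a ratio of 4.16. In HT29 it was 1559 ± 459 in 2D and 1953 ± 70.1 in MCS, a ratio of 1.25. The comparison between the cultures was thus nearly the same for the sum as for miR-203a-3p alone.

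The miRNAs usually named with miR-203 in epithelial cells are the miR-200 family (miR-200a-3p, miR-200b-3p, miR-200c-3p, miR-141-3p and miR-429), which represses ZEB1 and ZEB2, miR-183-5p, another ZEB1-repressed miRNA, and miR-205-5p of stratified epithelium. In DLD1 cells 6 of these 7 were tested and 5 rose in MCS, where 29.8% of all miRNAs tested were called higher, and 0 fell. Their median log2 fold change was 1.01, against 0.23 over all miRNAs tested. The authors place miR-200a, miR-200b and miR-429 in 1 cluster and miR-200c and miR-141 in another. The members of a cluster are not separate observations. The list was chosen with earlier results of these data known, so its tests in both lines are not independent of that choice. miR-200a-3p had 2588 and 2173 normalized CPM in 2D and 5452 and 6139.7 in MCS, a log2 fold change of 1.28 (SE 0.25, edgeR adjusted p = 2.36e-06). miR-200b-3p rose by 1.26 (SE 0.32, edgeR adjusted p = 0.000539) and miR-200c-3p by 1.04 (SE 0.34, edgeR adjusted p = 0.00712). Those 2 were the more abundant, with 29202 and 31348 normalized CPM for miR-200b-3p in 2D and 59791 and 84874 in MCS, and 48346 and 55910.4 against 90902 and 123782 for miR-200c-3p. miR-141-3p rose by 0.98 (edgeR adjusted p = 0.000144) and miR-183-5p by 0.73 (edgeR adjusted p = 0.0122). miR-429 had a log2 fold change of 0.56 and did not pass (edgeR adjusted p = 0.0566). All 6 lay below miR-203a-3p and miR-203b-5p, a difference that was not tested. The count of 5 hung on the 2D libraries and the scaling: it was 2 without replicate 1 of 2D, 1 without replicate 2 of 2D, and 2 with the upper quartile taken over the tested miRNAs.

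miR-205-5p was below the filter in DLD1, with 0.627 to 2.16 normalized CPM. It was well counted in HT29, with 483 and 722 normalized CPM in 2D and 159.5 and 322 in MCS. Its log2 fold change there was −1.32 (SE 0.55, edgeR adjusted p = 0.975), and it did not pass. In HT29 all 7 were tested and 0 were called in the main edgeR fit, as was 0% of all miRNAs tested there, and 12 of the 301 had an unadjusted p under 0.05. The median log2 fold change of the list was −0.07, against 0.03 over all miRNAs tested. miR-141-3p had 1438 and 1329 normalized CPM in 2D and 2856 and 2246 in MCS (log2 fold change 0.88, SE 0.40), and miR-200a-3p had 9673 and 8467 in 2D and 12314 and 15239 in MCS (0.60, SE 0.47). Both lay higher in MCS without overlap, as did 17.9% of the miRNAs tested in HT29, and neither passed (edgeR adjusted p = 0.977 for each). DESeq2 called 0 of the 7 and 12 of the 301, and edgeR's exact test 0 of the 7 and 5 of the 301. With a term for the replicate number, edgeR called 1 of the 7, lower in MCS, and 47 of the 301.

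**Figure D4:**
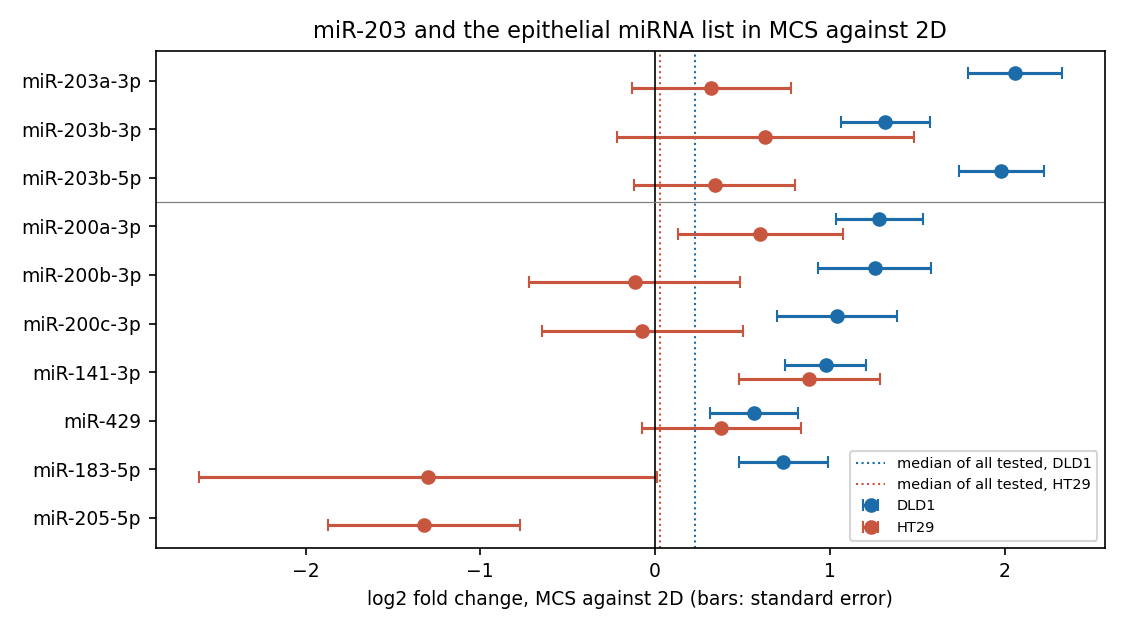
Log2 fold change of MCS against 2D with its standard error for the 3 miR-203 miRNAs (above the line) and the 7 epithelial miRNAs, in DLD1 (blue) and HT29 (red). Dotted lines mark the median of all miRNAs tested, 0.23 in DLD1 and 0.03 in HT29, and miR-205-5p was not tested in DLD1. In DLD1 the highest values are those of miR-203a-3p (2.06) and miR-203b-5p (1.98), and the HT29 values run from −1.32 to 0.88.

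The miRNAs whose pattern over the 8 libraries was most like that of miR-203a-3p were found by the root mean square difference of log2(normalized CPM + 1), each miRNA centred on its mean, among 249 miRNAs compared. Nearest were let-7b-5p at 0.16, miR-146a-5p at 0.25, miR-27b-5p at 0.29, miR-23b-3p at 0.38 and miR-200c-3p at 0.43, where the median of all compared was 1.09. let-7b-5p, a member of the let-7 family of differentiation miRNAs, had a mean of 2997 in DLD1 2D, 12648 in DLD1 MCS, 2427 in HT29 2D and 2981 in HT29 MCS, so it followed miR-203a-3p both across the cultures and across the lines. Of the locus, miR-203b-3p came at place 8 (0.51) and miR-203b-5p only at place 78 (0.91).

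With each miRNA centred within its cell line, which takes out the difference between the lines and their kits, the nearest were let-7b-5p at 0.15, miR-27b-3p at 0.21, miR-146a-5p at 0.25, miR-664a-3p at 0.26 and miR-27b-5p at 0.29, and the median was 0.79. Here miR-203b-5p came at place 8 (0.31) and miR-203b-3p at place 30 (0.51). By place, miR-203b-5p thus moved from 78 to 8 once the difference between the lines was taken out, and miR-203b-3p from 8 to 30. The distance of miR-203b-3p was 0.51 by either centring. Centring within the lines cannot raise a distance, so nothing is read from a fall in distance alone. Of its counts plus those of miR-203a-3p, miR-203b-3p made up a mean of 2.04% in DLD1 and 2.06% in HT29. Single libraries ran from 1.52% to 2.85% in DLD1 and from 1.18% to 3.42% in HT29. The 8 points share the libraries and their scaling, and the distances are given as a description.

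**Figure D5:**
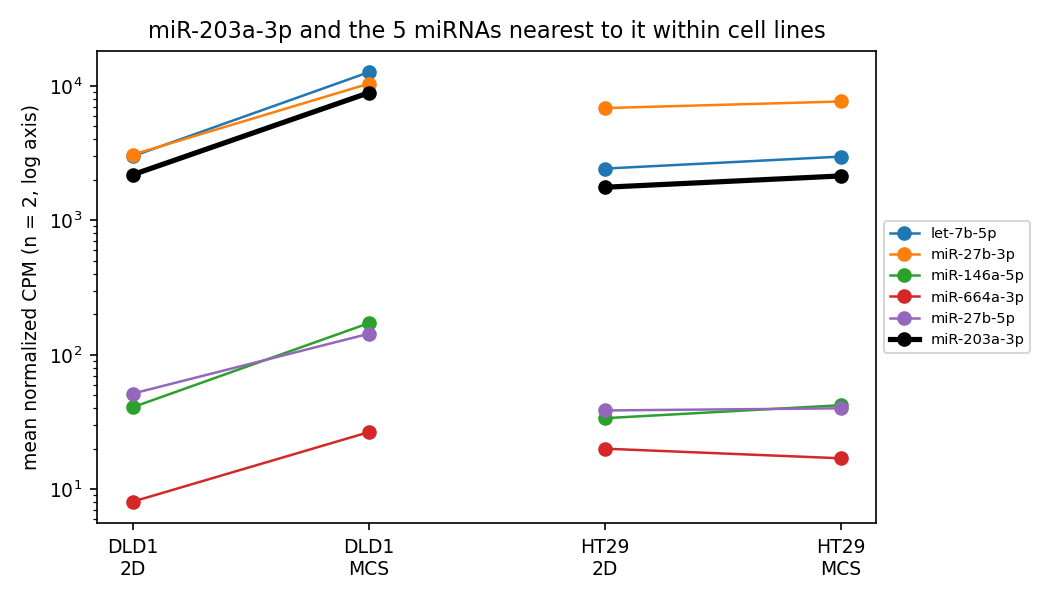
Mean normalized CPM (n = 2, scaled over the 8 libraries, log axis) of miR-203a-3p (black) and the 5 miRNAs nearest to it after centring within each cell line, in the 4 groups. All 6 are higher in DLD1 MCS than in DLD1 2D, with miR-203a-3p going from 2183 to 8895, and between the HT29 groups they differ little, with miR-203a-3p at 1763 and 2139.5.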

How the data were processed

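Small RNA was sequenced from 8 libraries of DLD1 and HT29 cells, grouped by the cell line, culture and replicate number of the labels. The authors trimmed reads with Cutadapt, kept those of sufficient length and quality, mapped them with Bowtie2 to GRCh37 (hg19), assigned them to mature miRBase sequences, and deposited raw counts for each mature miRNA, neither normalized nor pooled. The submitters' processing notes name CASAVA 1.8.3, cutadapt 1.11, Bowtie2 2.1.0 and edgeR 3.4.2. How strand, and reads that match several miRNAs, were counted is not given in the sources used here. The single-library tables and the joint table held 12572 values in common, and 0 of them differed. The joint table also lists 15 entries that name no miRNA. They held 2590 counts (0.00988%) in replicate 2 of HT29 2D and were left out.

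Counts were fitted with edgeR 4.0.16 (quasi-likelihood, upper quartile factors over all miRNAs with at least 1 count, a mean of at least 10 CPM, no term for the replicate number) in R 4.3.3, each line alone for MCS against 2D and all 8 libraries for HT29 against DLD1. P-values were Benjamini-Hochberg adjusted over all miRNAs tested, and a miRNA was called at a change of 1.5-fold or more with an adjusted p under 0.05. The fits were checked on simulated data, and the permutation test on small made-up sets of values. Precision is set by the spread between 2 libraries. The SE of a log2 fold change is its absolute size divided by the square root of the quasi-likelihood F statistic. Alternatives were TMM, DESeq2 (RLE) and total scaling, an upper quartile over tested miRNAs, other filters, DESeq2 1.42.0, edgeR's exact test, fits of other sets of libraries, a replicate block and each library left out.

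The miRNAs named are the 4 arms of the locus, the epithelial list, reverse complementary pairs with at least 1000 counts in every library, the 5 nearest profiles by each centring, and miRNAs sharing a seed. The members and lists were chosen with earlier results of these data known. Sequences are from a RefSeq table of build GRCh38.p14 and were used without its coordinates. Positions come from matching them to GRCh37. Python 3.11.15, numpy 2.4.6, pandas 2.3.3, scipy 1.17.1 and matplotlib 3.10.9 did the rest.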

Additional observations from a re-analysis of the deposited data

How the results depend on the processing

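With 2 libraries per group, single libraries and the scaling limited the values. In DLD1, library totals alone gave MCS against 2D log2 fold changes of 1.66 (miR-203a-3p), 0.93 (miR-203b-3p) and 1.59 (miR-203b-5p), and the upper quartile over tested miRNAs 1.58, 0.83 and 1.4999. With a library left out they ran from 1.68 to 2.15, 0.97 to 1.40 and 1.64 to 2.05. In HT29 the same ranges were −0.090 to 0.74 for miR-203a-3p, −0.53 to 1.60 for miR-203b-3p and −0.029 to 0.60 for miR-203b-5p.

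For HT29 against DLD1 in 2D, the upper quartile over tested miRNAs gave −0.95 for miR-203a-3p (edgeR adjusted p = 0.0492) and 0.71 for miR-203b-5p (0.0992), and library totals −1.97 for miR-203b-3p (0.0249) and 0.56 for miR-203b-5p (0.602). With a library left out miR-203b-5p ran from 1.22 to 1.43. In MCS, miR-203b-3p passed with library totals (−2.07), no filter (−1.41) and the 4 MCS libraries alone (−1.47), and ran from −2.54 to −0.78 with a library left out. miR-203b-5p turned to 0.070 under TMM factors. The causes of these shifts were not tested. The median of all tested miRNAs ran from −0.73 to 0.50 in 2D and from −0.56 to 0.18 in MCS over the 5 scalings.

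In DLD1 the epithelial list had 2 calls higher in MCS with the upper quartile over tested miRNAs and 1 to 6 with a library left out. Of all miRNAs called in DLD1, 103 of 143 were higher in MCS, against 76 of 138 with TMM factors, 89 of 139 with RLE size factors, 60 of 143 with library totals and 49 of 142 with the upper quartile over tested miRNAs. In HT29, where edgeR's quasi-likelihood test called 0, its exact test called 5, DESeq2 12 and the fit with no filter 15.

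The replicate numbers do not name a shared origin, so the replicate block is given as an alternative only. Same-numbered libraries deviated together over miRNAs (correlation 0.321 in DLD1 and 0.789 in HT29). With the replicate block, MCS against 2D was 2.03 (miR-203a-3p), 1.31 (miR-203b-3p) and 1.96 (miR-203b-5p) in DLD1 and 0.37, 0.58 and 0.31 in HT29, where it made 47 calls over all miRNAs, with 1 of the epithelial list lower in MCS. It changed no call of the 3 miRNAs between the lines. The block leaves 16 arrangements for the share of miR-203b-5p (exact permutation p = 0.125, the smallest they can give).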
